A study of Rattus norvegicus with 4 samples.

Results

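A group of 7 genes of the nuclear receptor family were followed in primary rat astrocytes, glial cells that support and regulate neurons. They are Nr0b2, which encodes small heterodimer partner (SHP) and is the target of the siRNA, both genes for liver X receptors (Nr1h2 and Nr1h3), the farnesoid X receptor gene Nr1h4, the liver receptor homologue 1 (LRH-1) gene Nr5a2, and the retinoid X receptor genes Rxra and Rxrb. They were taken by symbol from the probe annotation, and each of the 7 had 1 probe, among 18166 genes with 1 symbol. The genes were chosen as receptors that SHP or the compound could act through, with earlier results of these data known. Of the 7, 4 passed a filter on low values, which kept 11790 genes with at least 1 array at or above the table median of 5.83. Nr0b2, Nr1h4 and Nr5a2 did not pass it, and all 7 are described.

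The cells came from the cerebral cortex of Sprague-Dawley rats aged 1 day and were kept for 2 days in serum-free medium to remove microglia and meningeal cells. Expression was measured on 4 single-colour microarrays, 1 per culture. The first culture had SHP siRNA with interferon-γ (IFN-γ) and a compound the labels call GW, which they do not spell out. The second had control siRNA with IFN-γ and GW, the third control siRNA with IFN-γ, and the last control siRNA without treatment. Treatment lasted 3 h. Every culture thus received an siRNA, and SHP siRNA without GW, GW without IFN-γ and cells without siRNA were not analysed here. The labels do not say whether cells of several pups were pooled.

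Nuclear receptors are transcription factors that lipid-soluble ligands switch on or off. Liver X receptors bind oxysterols, pair with a retinoid X receptor on DNA and turn on genes of sterol export and fatty acid synthesis, and they can also repress inflammatory genes in macrophages and glia. SHP lacks the DNA-binding domain of the family. It binds other receptors and recruits corepressors, and in liver it is induced by the farnesoid X receptor and represses LRH-1 at bile acid synthesis genes.

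The stretches of DNA before 3 of the genes are shown because they hold the setting of the siRNA target and of both liver X receptor genes. They are the 250 bases before the start that RefSeq gives on rat assembly GRCr8, written 5′ to 3′ on the strand of the gene. Capitals mark matches, on either strand, to 4 motifs. The first is TCAAGG, the core of LRH-1 sites. The second is AGGTCA, the element that many nuclear receptors recognise. The third is TTCNNNGAA, the type of site bound by STAT proteins, and the last is TATAAA, the core of many TATA boxes. Nr0b2 lies on the plus strand at chr5:151062910-151063159, Nr1h2 on the minus strand at chr1:104183864-104184113, and Nr1h3 on the minus strand at chr3:97623230-97623479.
Nr0b2: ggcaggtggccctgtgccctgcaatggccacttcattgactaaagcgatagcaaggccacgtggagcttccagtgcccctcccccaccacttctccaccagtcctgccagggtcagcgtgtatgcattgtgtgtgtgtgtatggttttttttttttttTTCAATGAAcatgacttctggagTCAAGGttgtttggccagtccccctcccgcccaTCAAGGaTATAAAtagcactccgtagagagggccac
Nr1h2: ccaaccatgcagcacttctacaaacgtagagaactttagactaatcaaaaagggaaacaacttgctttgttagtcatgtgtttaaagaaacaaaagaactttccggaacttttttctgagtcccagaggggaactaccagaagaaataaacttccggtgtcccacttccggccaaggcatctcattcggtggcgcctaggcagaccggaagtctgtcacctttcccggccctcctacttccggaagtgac
Nr1h3: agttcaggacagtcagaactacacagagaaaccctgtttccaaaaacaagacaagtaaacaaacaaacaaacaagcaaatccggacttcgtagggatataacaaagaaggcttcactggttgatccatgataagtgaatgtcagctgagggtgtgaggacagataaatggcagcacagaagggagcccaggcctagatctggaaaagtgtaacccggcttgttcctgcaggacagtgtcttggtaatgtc

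The Nr0b2 stretch held TCAAGG at 2 places, beginning 69 and 36 bases before the start. It also held a STAT-type match beginning 92 bases before and a TATA box match 29 bases before the start, and none of these matches overlapped another. Of 33469 rat promoter stretches of this length, 12.6% held TCAAGG, 7.67% TTCNNNGAA and 12.9% TATAAA on either strand. The stretches of Nr1h2 and Nr1h3 held none of the motifs. Of the 6 members with a promoter entry, Nr5a2 alone held AGGTCA, which 14.1% of all stretches held. Direct repeats of AGGTCA with 4 bases between them, the liver X receptor type, occurred in 1 of the 33469 stretches, and with 1 base between them in 17. Inverted repeats with 1 base between them, the farnesoid X receptor type, occurred in 9, and none of the 6 members held any of these repeats. These matches describe letters in a short window and were not tested as binding sites.

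Array medians differed little, at 5.85, 5.87, 5.80 and 5.79 in the order of cultures given above. All 10 astrocyte markers with a probe, among them Gfap (12.06, 12.11, 12.06 and 12.03), stood at or above the table median on every array. So did all 13 microglia markers. Fewer markers of other cells did so, 5 of 11 for neurons, 7 or 8 of 9 for the oligodendrocyte lineage, 9 or 10 of 12 for meningeal fibroblasts and 1 or 2 of 6 for endothelium. Of 11 hepatocyte markers, at most 1 did so on any array. Each condition was measured once, so no difference below has a p-value or a standard deviation, and conditions cannot be told apart from single cultures or single arrays. In such bulk samples fewer cells of a type and less RNA per cell cannot be told apart either. The microarray signals of different probes were not compared as amounts of RNA.

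Nr0b2 was the only one of the 7 genes at least 2-fold apart in any of the 3 main comparisons. Its log2 signal was 3.45 in the culture with SHP siRNA, IFN-γ and GW. In the control siRNA cultures it was 5.20 with IFN-γ and GW, 5.14 with IFN-γ and 5.33 without treatment. The SHP siRNA culture thus stood apart from all 3 others, which lay close together. Under IFN-γ and GW, SHP siRNA against control siRNA gave a log2 difference of -1.74, or 3.35-fold lower. Without the filter, 0.264% of all genes were at least 2-fold lower in this comparison, and with it 0.263%.

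**Figure D1:**
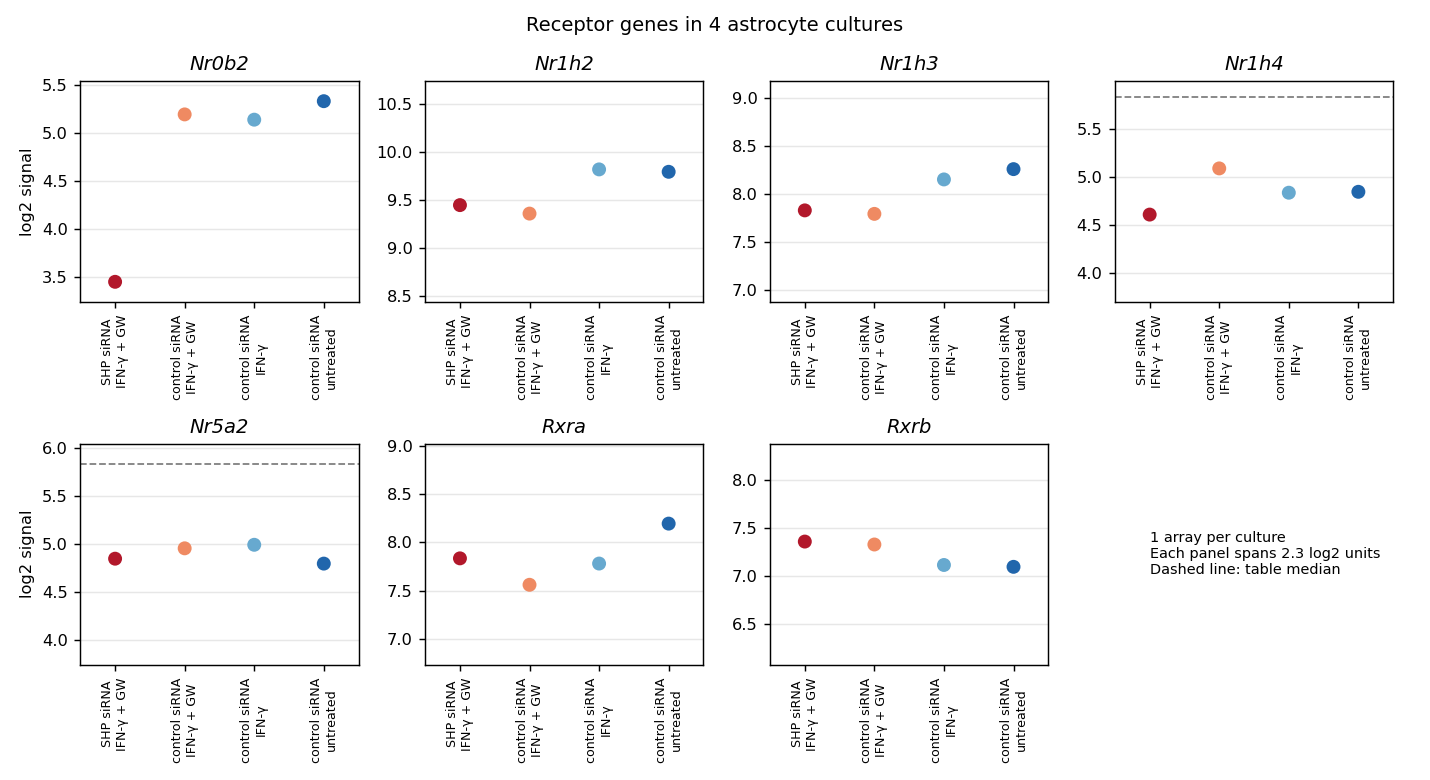
Log2 signal of each of the 7 receptor genes (vertical axis) in the 4 cultures (horizontal axis), 1 point per array, with no replicates. Nr0b2 is at 3.45 with SHP siRNA, against 5.14 to 5.33 in the control siRNA cultures, while the other 6 genes stay within a range of 0.64 log2.

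Few genes of the array shared this difference in size. Of 18166 genes, 3 had a difference at least as low as that of Nr0b2 in this comparison, Nr0b2 included. Against the IFN-γ culture the log2 difference of Nr0b2 was -1.69, and 6 genes, Nr0b2 included, were as low. Against the untreated culture it was -1.88, and 1 gene, Nr0b2 itself, was as low. In all, 3 genes (0.0165%) were at least 2-fold below each of the 3 control siRNA arrays. They were Nr0b2, the chemokine gene Ccl5 and Calhm5, which encodes a member of a family of membrane channel proteins. The gap to the lowest control array was -1.69 for Nr0b2, -1.03 for Ccl5 and -1.02 for Calhm5. All of these comparisons share the same SHP siRNA array, so they do not count as separate observations.

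The genes next to Nr0b2 in the RefSeq annotation, looked up after its value was seen, did not share the difference. The nearest genes with a probe were Nudc and Kdf1 on one side and Gpatch3 and Gpn2 on the other. Nudc was at -0.11, Kdf1 at -0.04, Gpatch3 at -0.04 and Gpn2 at -0.02 on the log2 scale with SHP siRNA. Nr0b1, the closest relative of Nr0b2 in sequence and also without a DNA-binding domain, had log2 values of 3.66, 3.82, 3.78 and 3.45, all below the table median. It differed by -0.16 with SHP siRNA, and at such low values a further fall may not show. Kdf1 also stayed below the table median on every array.

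**Figure D2:**
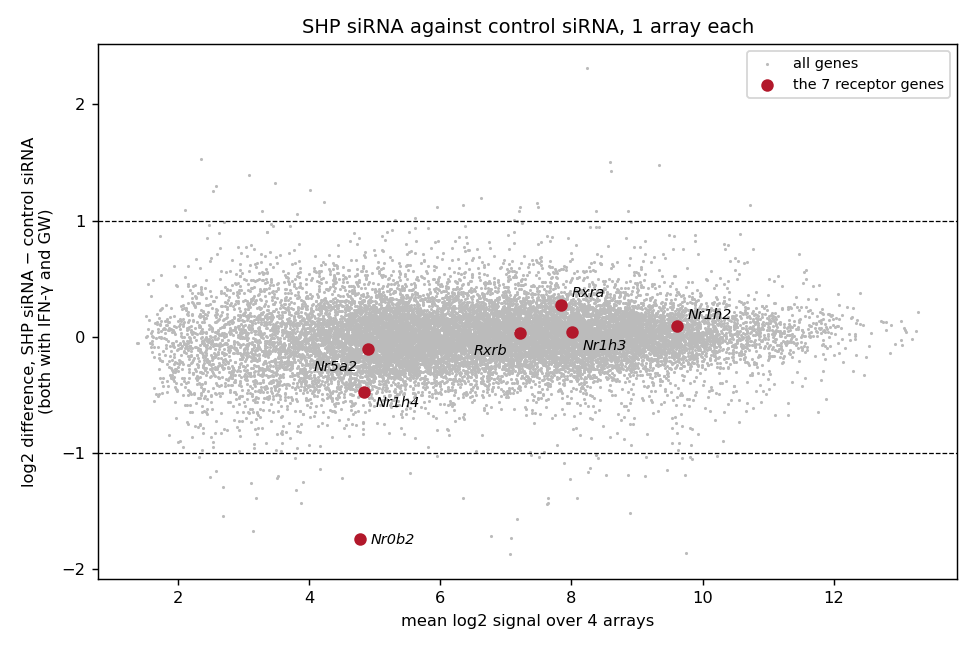
Log2 difference of SHP siRNA minus control siRNA under IFN-γ and GW (vertical axis), against the mean log2 signal over the 4 arrays (horizontal axis), 1 grey point per gene and red points for the 7 receptor genes. Dashed lines mark 2-fold, and Nr0b2 at -1.74 is the 1 red point beyond them.

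All 4 values of Nr0b2 lay below the table median. To place them, 1343 olfactory and vomeronasal receptor genes, which encode odorant and pheromone receptors of the nose, were taken by their symbols as genes that cortical cultures are not known to use. Their median log2 signal was 3.42 on the SHP siRNA array, 3.51 with control siRNA, IFN-γ and GW, 3.40 with IFN-γ and 3.42 without treatment. With SHP siRNA, Nr0b2 stood above 51.0% of them, that is, at their middle. With control siRNA it stood above 90.2% with IFN-γ and GW, 91.2% with IFN-γ and 94.2% without treatment. None of the 1343 had a difference as low as that of Nr0b2 between the SHP siRNA and control siRNA arrays with IFN-γ and GW (0 of 1343), where the middle 95% of their differences ran from -0.80 to 0.62. The level of a transcript that is not there is unknown for the Nr0b2 probe, so the size of its difference from each of the 3 control siRNA arrays is uncertain. Its control siRNA values also lay below the 95th percentile of the olfactory and vomeronasal receptor genes, which was 5.62 with IFN-γ and GW, 5.43 with IFN-γ and 5.43 without treatment. All of the ranks of Nr0b2 given here rest on these low values.

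**Figure D3:**
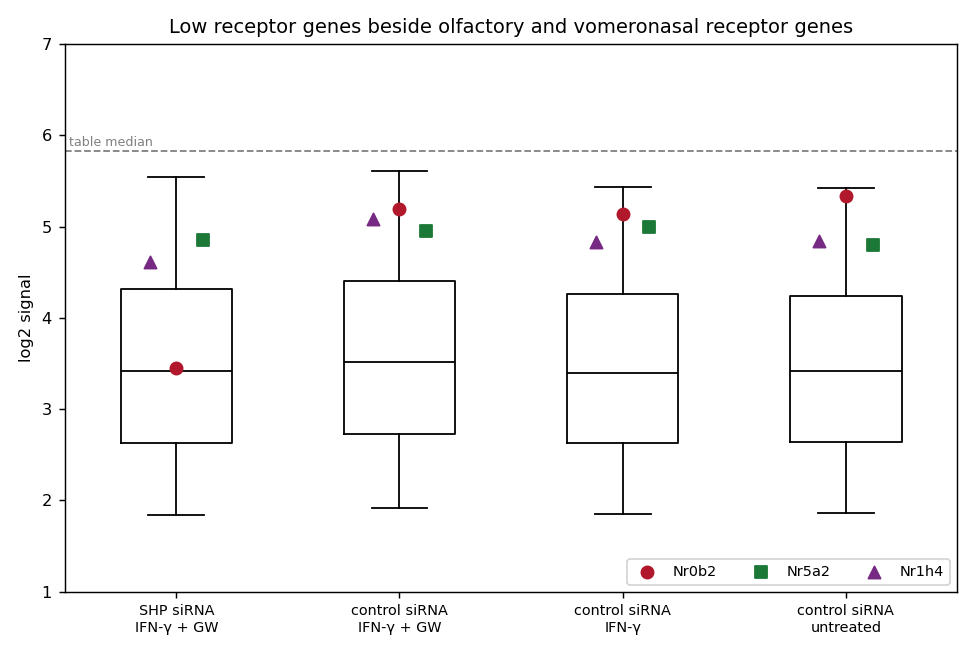
Log2 signal (vertical axis) of 1343 olfactory and vomeronasal receptor genes on each array (boxes from the lower to the upper quartile with the median, whiskers from the 5th to the 95th percentile), with Nr0b2, Nr5a2 and Nr1h4 as coloured points. Nr0b2 lies at the median of these genes with SHP siRNA and above 90.2% to 94.2% of them on the control siRNA arrays.

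IFN-γ and GW went with little difference in Nr0b2. IFN-γ against no treatment gave -0.19, and 17.0% of all genes were at least as low. Adding GW gave 0.05, a sign that turned after quantile normalization, median centring or cyclic loess, down to -0.06. The 3 control siRNA values of Nr0b2 spanned 0.19 log2 in all.

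Both liver X receptor genes were lower on the arrays with GW. Nr1h2, which encodes the widely expressed liver X receptor β, had log2 values of 9.44 with SHP siRNA, IFN-γ and GW and 9.36 with control siRNA, IFN-γ and GW. It had 9.82 with IFN-γ alone and 9.79 without treatment. Nr1h3, which encodes liver X receptor α, prominent in liver and macrophages, had 7.83 with SHP siRNA, IFN-γ and GW and 7.80 with control siRNA, IFN-γ and GW. It had 8.16 with IFN-γ and 8.26 without treatment. For each gene the pair of arrays with GW lay below the pair without, and the pairs did not overlap.

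GW with IFN-γ against IFN-γ, both with control siRNA, gave -0.46 for Nr1h2 (1.38-fold lower) and -0.36 for Nr1h3 (1.28-fold lower). Among genes past the filter, 8.81% were as low as Nr1h2 and 14.5% as low as Nr1h3. Both arrays with GW lay below both others for 37.7% of genes past the filter, so this order is common on these arrays. IFN-γ against no treatment gave 0.02 for Nr1h2 and -0.11 for Nr1h3, and SHP siRNA against control siRNA gave 0.09 and 0.04. The signs of these 6 differences held under the 3 other scalings tried.

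Markers of microglia, the phagocytes of brain tissue, were also lower on the GW arrays. Their summed signal, on the linear scale over 13 genes, was 6631 with SHP siRNA, IFN-γ and GW and 6048 with control siRNA, IFN-γ and GW. It was 8512 with IFN-γ and 11017 without treatment. With GW against IFN-γ alone, 12 of 13 markers lay below 0, where 57.8% of all genes past the filter did. Their median was -0.47, with the adaptor gene Tyrobp at -1.22 and the leukocyte phosphatase gene Ptprc at -1.16 past 2-fold (0.95% of all genes past the filter lower). The fractalkine receptor gene Cx3cr1 alone lay above 0, at 0.68. With IFN-γ against no treatment, 12 of 13 markers also lay below 0, where 59.8% of all genes past the filter did. The marker median there was -0.36. Cx3cr1 was at -1.23 in that comparison, the 1 marker past 2-fold (0.288% of all genes past the filter lower). Astrocyte markers had a median of -0.21 with GW, with 7 of 10 below 0. The part of the microglia markers' difference in that of Nr1h2 and Nr1h3 was not tested.

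The farnesoid X receptor and LRH-1 genes stayed low on all arrays. Nr1h4, whose product senses bile acids and induces SHP in liver, had log2 values of 4.61, 5.09, 4.83 and 4.84 in the order of cultures given above. Nr5a2, whose product activates Nr0b2 in liver, had 4.85, 4.96, 4.99 and 4.80. Neither gene reached the table median of 5.83 on any array, and their values stood above 81.2% to 89.7% of the olfactory and vomeronasal receptor genes. Nr1h4 gave -0.48 with SHP siRNA against control siRNA, a difference that 3.26% of all genes and 10.9% of the olfactory and vomeronasal receptor genes matched or passed. It gave 0.25 with GW and -0.01 with IFN-γ. Nr5a2 gave -0.11 with SHP siRNA, -0.04 with GW and 0.20 with IFN-γ, the narrowest range over the 4 arrays of the 7 genes at 0.20 log2.

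The 2 retinoid X receptor genes, whose products are the common partners of liver X receptors and many others, had different orders. Rxra had 7.83 with SHP siRNA, IFN-γ and GW and 7.56 with control siRNA, IFN-γ and GW. It had 7.78 with IFN-γ and 8.20 without treatment, which was its highest value. IFN-γ against no treatment gave -0.42, or 1.33-fold lower, and 3.59% of genes past the filter were as low. IFN-γ with GW against no treatment gave -0.64, or 1.55-fold lower, which 5.15% of genes past the filter matched or passed. SHP siRNA against control siRNA gave 0.28, and 9.04% of genes past the filter were as high.

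Rxrb had 7.36 with SHP siRNA, IFN-γ and GW and 7.33 with control siRNA, IFN-γ and GW, against 7.11 with IFN-γ and 7.09 without treatment. Here the pair of arrays with GW lay above the pair without, an order found for 21.4% of genes past the filter. The difference with GW against IFN-γ alone was 0.21, and 16.8% of genes past the filter were as high. IFN-γ gave 0.02 and SHP siRNA 0.03. The third member of the group, Rxrg, stayed below the table median with values of 5.19, 5.36, 5.16 and 5.08.

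Of the 4 members past the filter, 0 were at least 2-fold apart in any main comparison. For all genes past the filter the share at least 2-fold apart in either direction was 1.9% with IFN-γ, 1.91% with GW and 0.407% with SHP siRNA. Over 4 genes each of those shares amounts to fewer than 1 gene. Their median differences were -0.04 with IFN-γ, -0.29 with GW and 0.06 with SHP siRNA, beside -0.04, -0.05 and 0.01 over all genes past the filter.

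By the distance between mean-centred log2 values over the 4 arrays, the genes most like Nr0b2 were Calhm5 (distance 0.54), Ccl5 (0.59) and the histone gene H2ac21 (0.66). No gene among 18065 lay within 0.5 of it. Nr1h2 was nearest to Pip4k2b, Fbxo48 and Glrb and Nr1h3 to Ercc3, Cr1l and Cul7, at distances of 0.0221 or less. These say little, since 10087 and 10377 genes lay within 0.5 of Nr1h2 and Nr1h3.

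The members were set beside the rest of the nuclear receptor family, of which 44 of 49 genes had a probe and 28 passed the filter, the 4 members included. With IFN-γ against no treatment, 3 were at least 2-fold higher (1.61% of all genes past the filter) and 0 lower (0.288%). They were Nr4a3 (1.47) and Nr4a1 (1.29), orphan receptors that many stimuli induce, and the retinoic acid receptor gene Rarg (1.08). With GW, 4 were at least 2-fold higher (0.958% of all genes past the filter) and 0 lower (0.95%). These were Nr4a3, Nr4a1, Nr4a2 and the circadian repressor gene Nr1d1. With SHP siRNA, 0 were at least 2-fold higher (0.144% of all genes past the filter) and 2 lower (0.263%), Nr4a2 (-1.87) and Nr4a3 (-1.52).

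The family medians were 0.02, 0.02 and -0.03 in these 3 comparisons, beside -0.04, -0.05 and 0.01 over all genes past the filter, and the second turned to -0.06 after median centring. Comparisons that follow each other share an array, so an error of that array raises one and lowers the other. This applies to Rarg, which had 7.16 with SHP siRNA, IFN-γ and GW, 6.85 with control siRNA, IFN-γ and GW, 7.68 with IFN-γ and 6.60 without treatment. It was highest in the IFN-γ culture. It applies also to Nr1d1, lowest in the IFN-γ culture, which had 11.42 with SHP siRNA, IFN-γ and GW, 11.25 with control siRNA, IFN-γ and GW, 10.10 with IFN-γ and 10.85 without treatment. Nr4a2 (9.79, 11.66, 8.94 and 8.59) and Nr4a3 (9.62, 11.14, 8.14 and 6.67, in the same order) were highest with control siRNA, IFN-γ and GW, the array that the GW and SHP siRNA comparisons share.

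**Figure D4:**
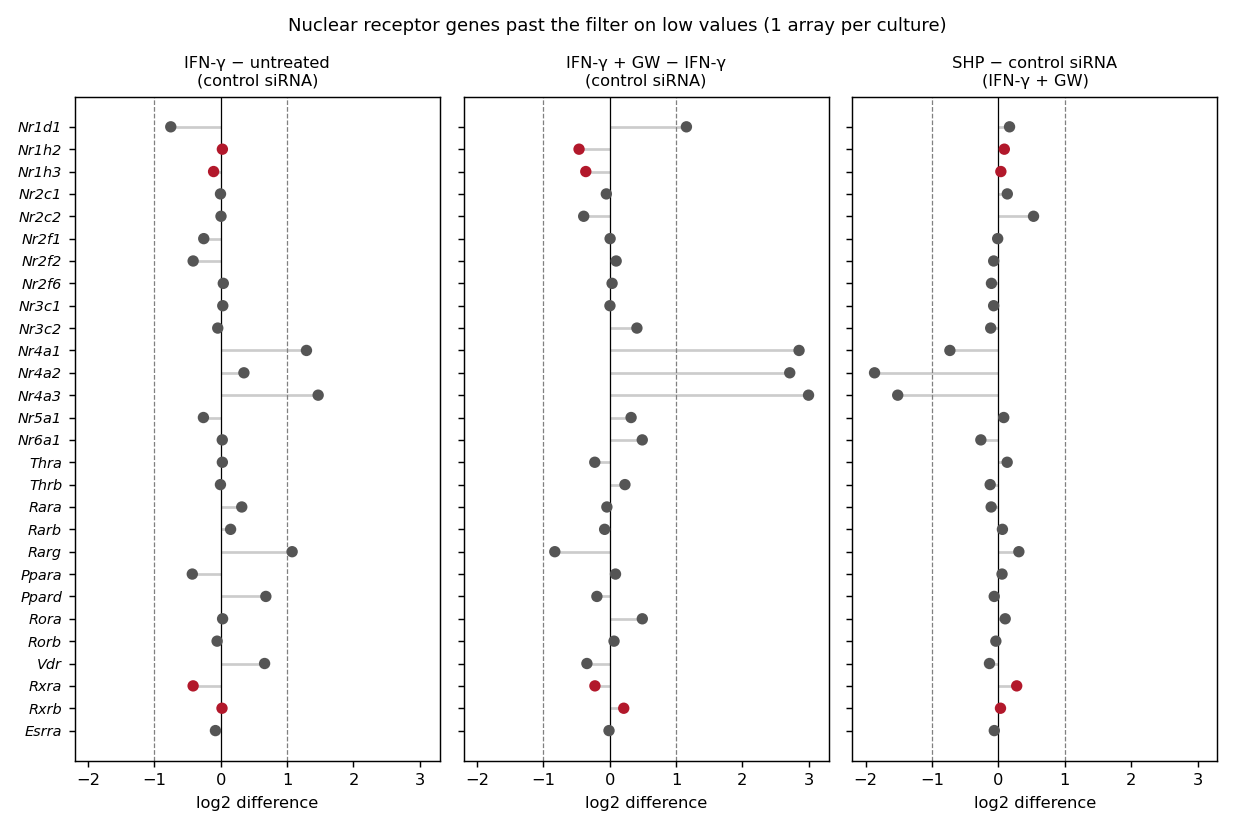
Log2 differences (horizontal axis) of 28 nuclear receptor genes past the filter (vertical axis) in the 3 main comparisons, with the 4 members past the filter in red and dashed lines at 2-fold. The red points all lie between -0.46 and 0.28, and the points beyond 2-fold are Nr4a genes, Rarg and Nr1d1.

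Other receptors that can pair with retinoid X receptors had a median of 0.33 with IFN-γ over 10 genes past the filter, with 8 above 0, where 40.1% of all genes past the filter lay above 0. Rarg and Nr4a1 were at least 2-fold higher (1.61% of all genes past the filter). Ppard was at 0.68 and the vitamin D receptor gene Vdr at 0.66. The median of the list was -0.06 with GW, where the mean was 0.42, and -0.09 with SHP siRNA. With GW, Nr4a1 and Nr4a2 were at least 2-fold higher (0.958% of all genes past the filter). With SHP siRNA, Nr4a2 was at least 2-fold lower (0.263%). Among 14 other receptors known to bind SHP, 6 passed the filter. Of these 1, Nr4a1, was at least 2-fold apart, with IFN-γ (1.9% of all genes past the filter) and with GW (1.91%). The liver receptor gene Hnf4a stayed below the table median with 5.29, 5.33, 5.30 and 5.31.

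Among genes of the proteins that receptors recruit, 0 of 11 corepressor genes were 2-fold apart in any main comparison. For all genes past the filter that share was 1.9% with IFN-γ, 1.91% with GW and 0.407% with SHP siRNA, so over lists of this size less than 1 gene would be past 2-fold at those shares. Among them were Ncor1, whose product carries histone deacetylase to silent receptors, at 9.36, 9.41, 9.13 and 9.20, and Gps2, a corepressor subunit that binds liver X receptors, at 8.62, 8.56, 8.64 and 8.75. Nrip1, which encodes a ligand-dependent corepressor, had the highest difference of the 11 with GW, at 0.75. Of 8 coactivator genes past the filter 0 were 2-fold apart, and with GW 7 lay above 0, with a median of 0.25 and Crebbp at 0.57, where 42.1% of all genes past the filter lay above 0. Genes of SUMO conjugation, a protein tag that liver X receptors can carry when they repress, had 0 of 14 at 2-fold, with differences between -0.31 and 0.32.

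With IFN-γ, 2 of 7 oxysterol genes that passed the filter reached 2-fold upward, as did 1.61% of all genes past the filter. Both encode enzymes that make oxysterols, the ligands of liver X receptors. The median of the 7 was -0.01, and 4 of them lay below 0, where 59.8% of all genes past the filter did. Ch25h, which hydroxylates the side chain of cholesterol, had log2 values of 11.62 with SHP siRNA, IFN-γ and GW, 11.10 with control siRNA, IFN-γ and GW, 12.05 with IFN-γ and 9.81 without treatment. IFN-γ against no treatment was 4.72-fold higher for this gene, and all 3 treated cultures stood above the untreated one. All of these differences share the untreated array, so an error of that array would give all of them. Cyp27a1, a mitochondrial sterol hydroxylase gene, had 7.15 with SHP siRNA, IFN-γ and GW, 6.64 with control siRNA, IFN-γ and GW, 7.88 with IFN-γ and 6.55 without treatment. It was 2.5-fold higher with IFN-γ than without, and 2.37-fold lower with GW added (0.95% of all genes past the filter lower). These 2 comparisons share the IFN-γ array, on which Cyp27a1 was highest, so an error of that array would give both differences.

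Other oxysterol genes past the filter were less than 2-fold apart in the main comparisons. Cyp7b1, which breaks down such oxysterols, was at 10.52, 9.96, 10.19 and 9.83 in the order of cultures given above. Cyp46a1, the cholesterol hydroxylase of neurons, was at 6.90, 6.88, 6.67 and 6.69. Of 7 oxysterol genes past the filter, 6 lay above 0 with SHP siRNA, where 51.5% of all genes past the filter did. Their median was 0.52, with 0 at 2-fold, and it was 0.25 without the filter. The median over all genes past the filter was 0.01. With GW the list median was -0.27, and the GW and SHP siRNA comparisons share the array with control siRNA, IFN-γ and GW.

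Of 14 liver X receptor target genes past the filter, 1 was at least 2-fold apart with GW (1.91% of all genes past the filter), the lysosomal cholesterol transporter gene Npc1 (-1.11). It had 7.82 with SHP siRNA, IFN-γ and GW and 7.61 with control siRNA, IFN-γ and GW, against 8.72 with IFN-γ and 8.66 without treatment. Both GW arrays lay below both others. The order was the opposite for Srebf1, a regulator of fatty acid synthesis, at 9.52 with SHP siRNA, IFN-γ and GW and 9.36 with control siRNA, IFN-γ and GW, against 8.74 with IFN-γ and 8.77 without treatment. The sterol exporter gene Abca1 had 10.64, 10.34, 10.12 and 10.18, and Abcg1 had 8.88, 8.63, 8.21 and 8.72, in the order of cultures given above.

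With SHP siRNA 12 of these 14 targets lay above 0, with a median of 0.21 and 0 at 2-fold, where 51.5% of all genes past the filter lay above 0. With GW 5 lay above 0, where 42.1% of all genes did, with a median of -0.13 that turned to 0.00 without the filter. With IFN-γ 2 lay above 0, where 40.1% of all genes did, with a median of -0.09. Meningeal fibroblast markers were also higher with SHP siRNA, with a median of 0.46 and 7 of 10 above 0. Among them, the retinoic acid synthesis gene Aldh1a2 was past 2-fold at 1.11 (0.144% of all genes past the filter higher). It was also past 2-fold with GW, at -1.21 (0.95% of all genes past the filter lower). It had 7.81 with SHP siRNA, IFN-γ and GW, 6.70 with control siRNA, IFN-γ and GW, 7.91 with IFN-γ and 7.55 without treatment. The summed signal of 12 fibroblast markers was 3479 with SHP siRNA, IFN-γ and GW and 2593 with control siRNA, IFN-γ and GW, the lowest sum. It was 2965 with IFN-γ and 2880 without treatment. The lipid genes' relation to it was not tested. With SHP siRNA against control siRNA, astrocyte markers had a median of 0.14 and microglia markers 0.14. The GW and SHP siRNA comparisons share the array with control siRNA, IFN-γ and GW. For the target genes and the markers alike, an error of that array would thus shift both comparisons, in opposite directions.

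Genes of bile acid synthesis and transport, where SHP acts in liver, were mostly low. Of 16 with a probe 6 passed the filter. Of these, Cyp27a1 alone was at least 2-fold apart, higher with IFN-γ (1.61% of all genes past the filter) and lower with GW (0.95%). Cyp7a1, the rate-limiting enzyme of bile acid synthesis and a classical target of SHP repression, had 3.42, 3.45, 3.21 and 3.52, and Cyp8b1 had 5.69, 5.46, 5.60 and 5.54. They differed by -0.03 and 0.23 with SHP siRNA, on values below the table median.

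**Figure D5:**
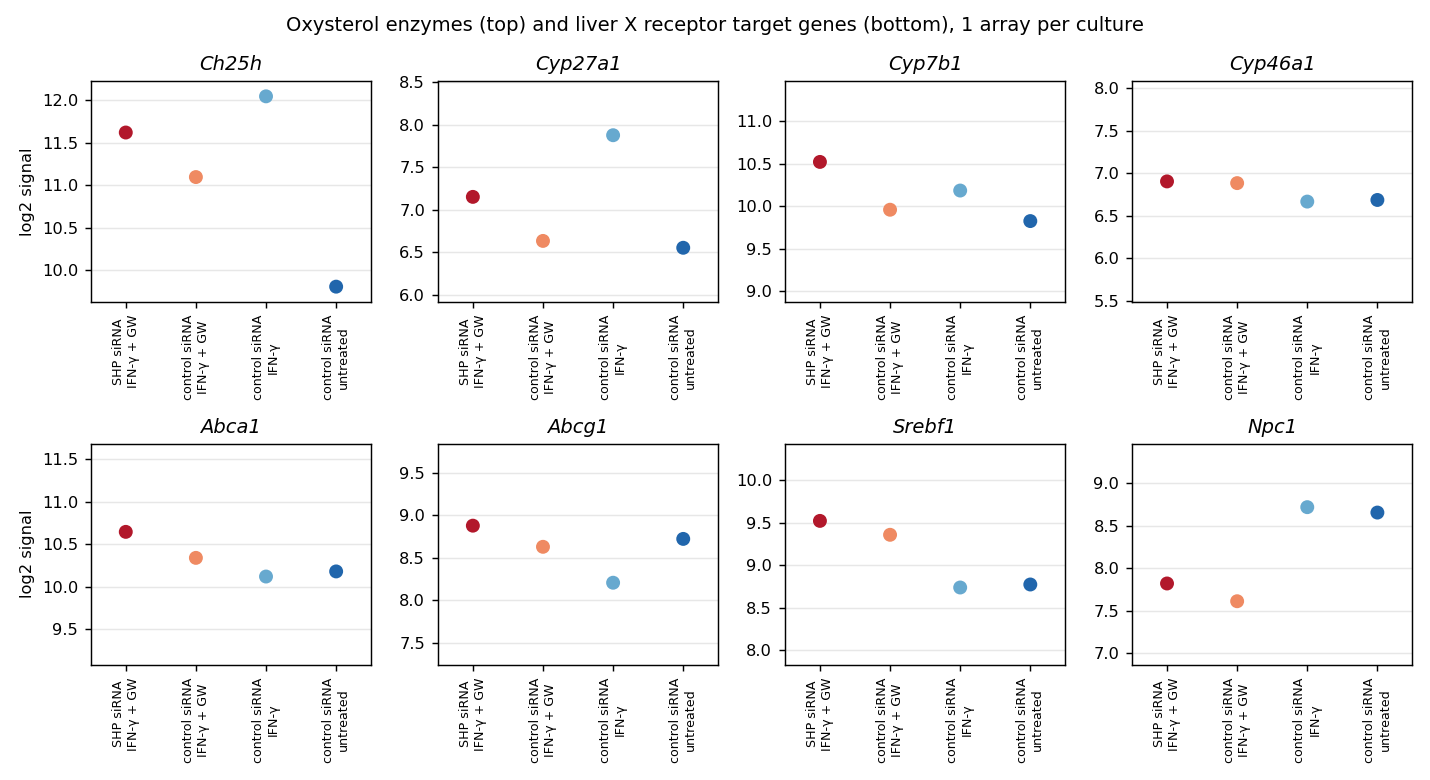
Log2 signal (vertical axes) of oxysterol enzyme genes and liver X receptor targets in the 4 cultures (horizontal axes), 1 point per array with no replicates. Ch25h is at 9.81 without treatment and between 11.10 and 12.05 in the 3 treated cultures, and Npc1 is lower on both GW arrays.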

How the data were processed

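The deposited table holds 1 value for each of 29489 probes on each of 4 arrays. The values, from 1.14 to 13.4, were taken as log2 signal summarised by the authors. Neither the log base nor the background correction or normalization is given in the sources used here. Trizol was used for total RNA and biotin for labelling of sense cDNA, per the labels' protocols. The probe annotation gives 1 symbol to 18511 probes. Current symbols came through Entrez identifiers in the RefSeq table for GRCr8, which held those of 18394 probes. The probe with the highest mean stood for a gene.

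Differences of log2 values between 2 arrays were called at 2-fold, with no test, since each group has 1 array. The number of arrays limits the precision. Signs were checked on simulated data with 200 changed genes. The members and lists (9 of receptor biology and 7 of cell type markers) were chosen with earlier results of these data known. Named genes are the members, list genes past 2-fold and past the filter, and the 3 genes nearest in pattern to Nr0b2, Nr1h2 and Nr1h3. Olfactory receptor genes were taken by symbol, leaving out Olr1, which in rat encodes the oxidized low-density lipoprotein receptor. The others were named after their values were seen, as were the panels of oxysterol and target genes. Alternatives were quantile normalization and cyclic loess (limma 3.58.1, R 4.3.3), median centring, the mean of a gene's probes, no filter, means of lists, and thresholds of 1.5-fold and 3-fold. Other steps used Python 3.11.15.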

Additional observations from a re-analysis of the deposited data

How the results depend on the processing

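The count of members at least 2-fold apart was 0 in each main comparison with the filter on low values, also at 1.5-fold and 3-fold, and under quantile normalization, median centring, cyclic loess and the mean of a gene's probes. Without the filter it was 1 for SHP siRNA against control siRNA, because Nr0b2 then entered. The Nr0b2 difference with SHP siRNA ran from -1.74 to -1.68 over the scalings. Of 21 member differences, 20 kept their sign under every scaling, and the exception was Nr0b2 with GW, between -0.06 and 0.05. No member difference moved by more than 0.11. Of 48 list medians, 13 changed sign under at least 1 setting. The median of the oxysterol list with IFN-γ was -0.01 and its mean 0.54. No paired analysis was possible because each group has 1 array. No pseudocount was tried, since the values were taken as logarithms.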
